A study of Rattus norvegicus with 15 samples.

Results

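The comparison set the colon against the small bowel taken as a whole. Its members were 12 of the 15 samples of the series: 3 preparations titled as colonic mucosal cells, and 9 from the small bowel, 3 each from duodenum, jejunum and ileum. Every gene was tested, and each small bowel segment carried the same weight, so the difference reported is the colon mean minus the mean of the 3 segment means. The animals were untreated male Sprague Dawley rats, except that the label of the third ileal preparation gives neither strain nor sex. No age or genotype is stated. Mucosal cells were released from everted bowel by a short treatment with the protease pronase and then purified by elutriation, which separates cells in a flow. Total RNA was purified on NucleoSpin columns, amplified linearly with the Agilent low-input kit, labelled with Cy3 or Cy5 and hybridised to a whole-genome rat oligonucleotide array. The design text speaks of 3 independent isolations but does not tie them to individual rats; every p-value below therefore reflects only how these preparations varied, which may be technical variation.

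The small bowel epithelium finishes the digestion of sugars and peptides on its brush border, takes up the products and packs fat into lipoproteins. The colonic epithelium meets mainly water, salts, mucus and the short-chain fatty acids made by bacteria. It absorbs sodium under the control of aldosterone, secretes bicarbonate and mucus, and uses butyrate as fuel. Its position along the gut is marked by Hox genes, whose order in each chromosomal cluster follows their order of use along the body axis.

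A level below is the log2 of a probe's processed signal minus the 75th percentile of that signal in the same sample, and a difference is on the log2 scale. Levels of different probes cannot be compared. A gene was called at an adjusted p below 0.05 in limma, which was fitted over 33001 genes with the slide as a block. Of these, 4120 genes (12.5%) were called higher in the colon and 4359 (13.2%) lower. The median difference over all genes was -0.00053. Genes that were higher than each of the 3 segments taken singly numbered 1661 (5.03%), and genes lower than each numbered 1881 (5.7%). All 3 colon samples lay above all 9 small bowel samples for 4615 genes (14.0%) and below all of them for 4513 (13.7%). Against single segments, 3796 genes (11.5%) were called higher and 3914 (11.9%) lower than duodenum. Against jejunum the counts were 4125 (12.5%) and 4311 (13.1%), and against ileum 2574 (7.8%) and 2551 (7.73%). A gene was tested where a probe was well above background in all 3 samples of at least 1 segment of the tract.

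The colon samples stood apart technically as well as in position. All 3 carried one slide barcode, with colon 1 and colon 2 as the channels of a single scan and colon 3 from another scan on another day, so segment and slide cannot be told apart for the colon. Each duodenal sample shared its slide with a jejunal sample labelled in the other dye, while each ileal sample had its own slide. Their median intensities were 184, 184 and 92.4, against 259 to 1048 in the small bowel, and 74.4 to 90.6% of their probes were well above background, against 44.2 to 92.4%. The colon files came from a later version of the scanner software than the small bowel files. The setting behind the mark for well above background was the same in the 9 small bowel files and was not found in the colon headers used here, so the mark may not mean the same in both groups, and neither may bounds that rest on it. Across genes, each read by its brightest tested probe, colon samples correlated with each other at 0.97 to 0.984 and with ileal, duodenal and jejunal samples at 0.838 to 0.913. The calls were unevenly spread over brightness. Among the brightest 11001 genes, 25.5% were called higher and 9.99% lower, with a median difference of 0.33. Among the dimmest 11000, 3.4% were called higher and 13.95% lower, with a median of -0.31. After quantile normalisation the brightest genes gave 15.1% higher and 12.4% lower. With normexp background correction, which shifted the median of all genes by 0.33, calls were 5910 higher and 3012 lower, so that 66.2% of calls were higher, against 48.6% in the main setting. For the ketogenesis and oxidative phosphorylation lists, made up mainly of bright genes, the counts are set below against the 25.5% of bright genes called higher. The part of slide, brightness and scaling in the differences was not tested.

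**Figure D1:**
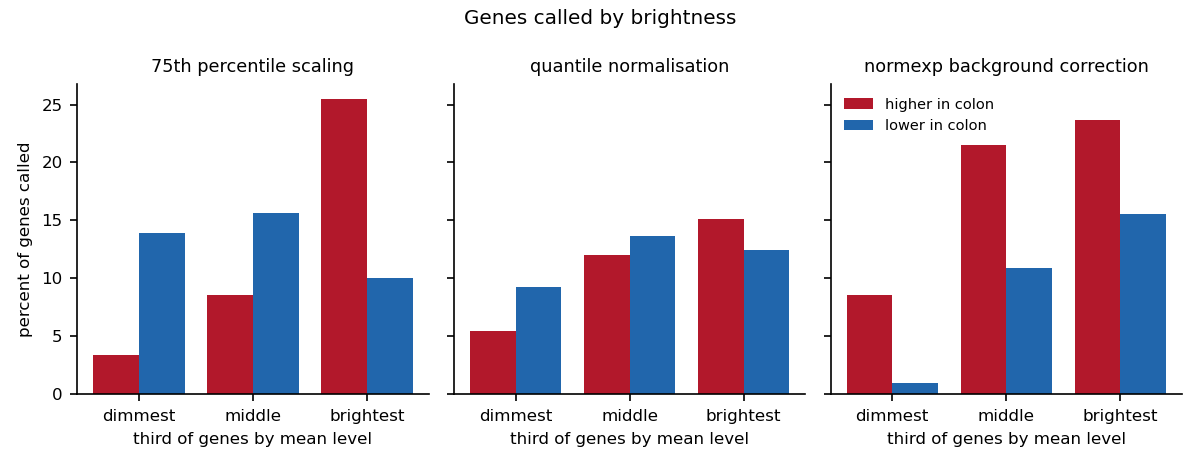
Percent of genes called higher (red) or lower (blue) in the colon, for genes split by mean level into 3 parts of equal size, under 3 ways of scaling. With the 75th percentile scaling the bright genes lean to higher calls (25.5% against 9.99%) and the dim genes to lower calls (13.95% against 3.4%); the lean among bright genes is smaller after quantile normalisation (15.1% against 12.4%).

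The 6 marker genes, chosen with earlier results of these data known, matched the labels: Mptx1, Car1 and Thbs4 were higher in every colon sample measured, and Si, Hnmt and Gip lower. The probes that carry the leading differences are shown because the values are those of single oligonucleotides. Each is a 60-base probe from the array files, given here only for markers whose probe has a reading frame without a stop codon. The Car1 probe used in the fit also has such a frame and is not shown. On rn4, the Thbs4 probe lies at chr2:23011026-23011612 and the Si probe at chr2:163521445-163523872. Both are annotated on the minus strand, over 587 and 2428 bases, longer than the probe, so each crosses at least 1 intron.
Mptx1: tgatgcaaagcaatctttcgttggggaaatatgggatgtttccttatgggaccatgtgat
Thbs4: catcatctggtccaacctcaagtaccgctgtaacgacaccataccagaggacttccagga
Si: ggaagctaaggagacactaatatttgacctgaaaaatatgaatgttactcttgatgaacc

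Mptx1, a secreted mucosal pentraxin, had levels of 6.66, 6.79 and 7.09 in colon 1, 2 and 3. In the small bowel its lowest, median and highest levels were -4.88, -2.58 and -1.56, and it was well above background in only 5 of the 9 samples. The colon was higher by 9.68 (SE 0.52), or 819-fold, with a limma adjusted p of 2.67e-09, and the groups did not overlap. With normexp its difference was 8.24. Within the small bowel the ileum was nearest to the colon, with a mean of -2.02 against -3.76 in duodenum and -3.28 in jejunum. Thbs4, a secreted thrombospondin of the extracellular matrix, stood at 4.90, 4.92 and 5.42 in the colon and between -3.83 and -1.92 in the 7 small bowel samples whose spot was not marked as an outlier and dropped. Its difference was 7.61 (SE 0.46; limma adjusted p 4.71e-08), and it was of similar size against each segment.

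Car1, a cytosolic carbonic anhydrase of the colonic surface epithelium, was at 6.88 and 7.08 in colon 1 and colon 2, and its spot on colon 3 was marked as an outlier and dropped from the fit. The small bowel ranged from -1.44 to 2.82, with jejunum highest on average. The difference was 6.82 (SE 0.51), or 113-fold, with a limma adjusted p of 2.22e-07. A second Car1 probe on the opposite strand of rn4 differed by only 0.85, and with the probes averaged the difference was 2.05 and no longer called.

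Si, the sucrase-isomaltase that splits sucrose and starch products, was at -5.64, -5.36 and -6.47 in the colon, not well above background in any sample. It ranged from 1.53 to 6.76 in the small bowel, with a median of 3.96. The colon was therefore lower by at least 350-fold, and the fitted difference was -9.53 (SE 0.63; limma adjusted p 3.23e-08). Hnmt, which inactivates histamine by methylation, was likewise not well above background in the colon (-5.74 to -6.54) and lay within 2.28 and 3.79 in all 9 small bowel samples. It was lower in the colon by at least 222-fold (limma adjusted p 1.65e-11), and its small bowel levels spanned far less than those of Si. Gip, the incretin hormone of K cells, was measured in every colon sample, at -1.95, -1.70 and -2.40. Its small bowel levels ran from 1.39 in one ileal sample to 7.51 in one jejunal sample, and the difference was -6.52 (SE 0.50; limma adjusted p 1.82e-07). A bound here sets the mean of the brighter side against, per sample, the dimmest signal still well above background or, where higher, the signal of the dim probe itself.

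**Figure D2:**
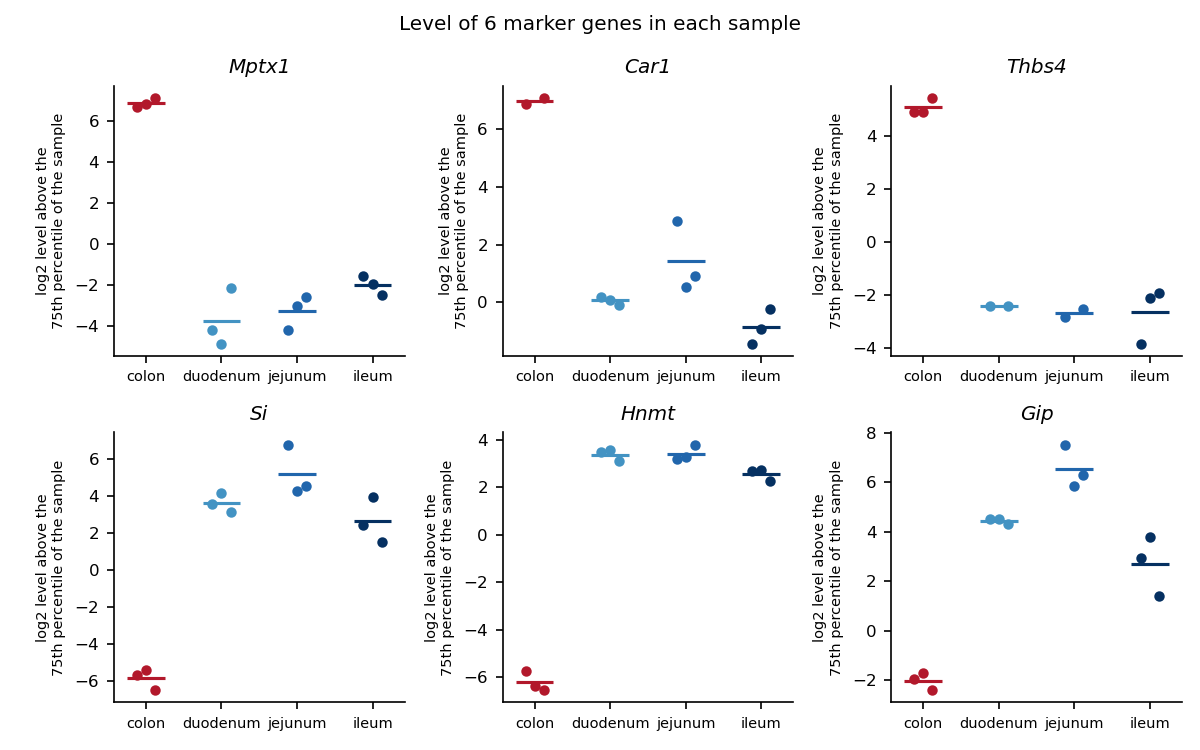
Log2 level of the 6 marker genes in each sample (points) with the mean of each segment (lines), relative to the 75th percentile of the sample. The colon lies above every small bowel sample for Mptx1, Car1 and Thbs4 and below every one for Si, Hnmt and Gip; spots marked as outliers are not drawn.

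The largest increases among genes that separated the samples completely included, beside Mptx1, Thbs4 and Car1, secreted, mitochondrial and patterning genes. Sval1, a seminal vesicle antigen-like gene, came second, at 5.30 in colon 2 and 6.06 in colon 3 with colon 1 slightly below them, and no higher than -3.13 in the small bowel, a difference of 9.46 (SE 0.41; limma adjusted p 2.99e-10). Ccn3, a matricellular protein, was the most even of them: 6.79, 6.92 and 7.03 in the colon, -0.62 to 0.54 in the small bowel, and well above background in all 12 samples. Its difference was 7.06 (SE 0.30), or 134-fold. Cd177 (6.88), Rgcc (6.64), the Wnt antagonist Sfrp2 (6.39), the mitochondrial calcium uniporter subunit Mcub (5.87), Clec14a (5.77), the aldo-keto reductase Akr1c15 (5.76), lactoperoxidase Lpo (5.73), the trypsin inhibitor Spink1 (5.62) and Hoxa4 (5.57) followed. Spink1 was also expressed in ileum, at a mean of 0.61, so that the difference was 3.09 from ileum, 6.71 from jejunum and 7.06 from duodenum. The probes of Clec14a, Spink1 and Sfrp2 differed in size: the other probe of Clec14a gave 1.90 and that of Spink1 gave 1.77. For Sfrp2 the other probes gave 7.1 and 2.24. In the small bowel several of these genes were well above background in some samples only: Cd177 and Rgcc in 7 of 9, Sval1 and Sfrp2 in 6, Lpo in 5, Clec14a in 3 and Hoxa4 in 2.

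The largest decreases included genes of fat, sugar, amino acid and purine handling. Mttp, which loads fat onto apolipoprotein B, fell from 2.85 to 6.62 in the small bowel to -5.19, -4.64 and -5.97 in the colon, where it was well above background in 1 sample of 3. The difference was -9.10 (SE 0.56; limma adjusted p 1.32e-08), while its second probe gave -3.74. Slc2a5, the fructose transporter, and Slc3a1, the shared subunit of the cystine and dibasic amino acid carrier, were not well above background in the colon and were lower by at least 89.0-fold and 66.7-fold. Reg1a, a secreted lectin-like protein, was lower by at least 68.3-fold. Pla2g12a, a secreted phospholipase, was lower by at least 180-fold, and its small bowel levels kept within 2.49 and 3.16. Xdh, the xanthine dehydrogenase that makes uric acid, was measured in every colon sample at -3.43, -3.88 and -4.03, against 1.65 to 3.95, a difference of -6.61 (SE 0.34; limma adjusted p 2.10e-09). Otc, the ornithine transcarbamylase of citrulline synthesis, differed by -6.25 and Apoa4, an apolipoprotein of chylomicrons, by -6.16. The peptidase Enpep (-6.45), the NAD-consuming ectoenzyme Bst1 (-6.38), Exoc3l4 (-6.26) and Mro (-6.49) were the others. For Enpep 1 probe of 3 gave only -0.53, and with genes restricted to probes well above background in all 12 samples Enpep was not called (-0.51). Bst1 and Mro were well above background in 1 colon sample of 3, and Enpep in 2. With normexp correction the differences were smaller but still called, at -5.67 for Si, -5.02 for Hnmt, -5.78 for Mttp, -4.89 for Pla2g12a, -3.54 for Slc2a5, -3.29 for Slc3a1, -3.23 for Reg1a, -3.63 for Bst1, -4.06 for Exoc3l4 and -3.42 for Mro.

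**Figure D3:**
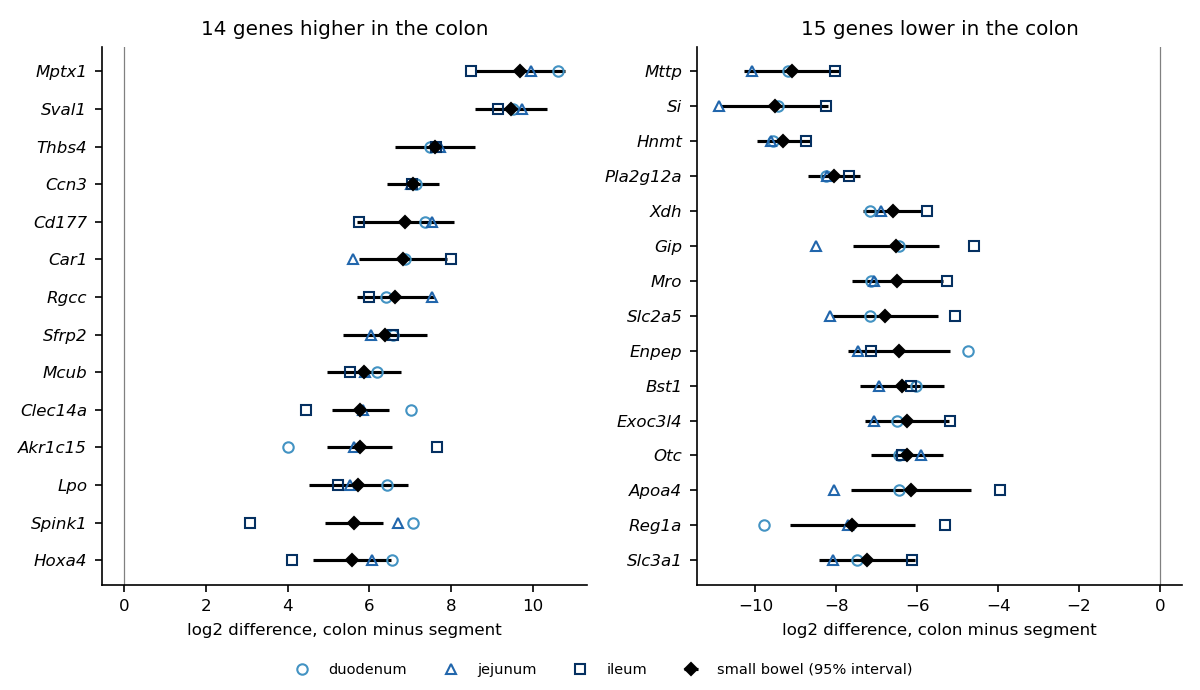
Log2 difference of the colon from the small bowel mean (black diamonds with 95% intervals) and from each segment (open symbols), for 14 of the genes most higher and the 15 most lower in the colon. All segment differences lie on the same side of 0; Spink1 against ileum and Gip against ileum are the smallest of the 3 for their genes.

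In the lists of brush border, lipid, sugar and ileal bile acid genes, more members were lower than higher in the colon. List counts here and below are to be read against the 12.5% of all genes called higher and 13.2% called lower. Where most members of a list are bright, the 25.5% higher and 9.99% lower of the brightest genes are the nearer reference. Among 21 genes of iron, calcium, folate and trace metal uptake the split was the other way, with 5 higher, 2 lower and a median of 0.12, and it was 2 and 2 after quantile normalisation. Of 21 brush border enzymes tested, 14 were lower and 2 higher in the colon, with a median difference of -1.69. Alpi, intestinal alkaline phosphatase, stood at -3.04, -2.85 and -3.14 in the colon and was also low in ileum (mean -1.04) against 4.05 in duodenum; its difference was -5.21 (SE 0.56; limma adjusted p 5.54e-06). Lactase (Lct), Tmprss15, the enteropeptidase that activates trypsin, Mme and Treh were among the lower genes. The exceptions were Dpp4 (1.27), which trims incretins, and the meprin subunit Mep1a (1.13), both called higher. After quantile normalisation neither of these was called. Of 29 lipid genes, 22 of them bright, 16 were lower and 3 higher, with a median of -1.48. Apoa1 was at -1.27, -1.45 and -0.78 in the colon against 3.19 to 7.59, a difference of -5.65 on the brighter of its probes and -0.13 on the other, or -2.89 with the probes averaged. Npc1l1, the cholesterol uptake protein, and the transcription factor Creb3l3 were lower, with differences of -4.03 and -4.89. Fabp1, Cd36 and Dgat2 did not pass the test, at -0.78, -0.63 and -0.46.

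Of 14 sugar genes, 8 were lower and 4 higher. Several genes of fructose use were lower: Slc2a5, the fructokinase Khk (-2.85) and the triose kinase Tkfc (-4.52). Slc5a1, the sodium-coupled glucose carrier, differed by -1.09, and Slc2a2 did not pass the test at -0.72. Pck1, which turns oxaloacetate into phosphoenolpyruvate, was higher in the colon at 3.71, 3.16 and 2.84 against -1.80 to 2.06, a difference of 3.45 (SE 0.47; limma adjusted p 5.21e-05). Of 16 amino acid and peptide carriers, 5 were lower and 4 higher. The peptide carrier Slc15a1 (-5.32) and the partners Slc3a1 and Slc7a9 (-4.38) were lower. Slc1a5 (2.00) and Slc38a2 (1.94) were higher, with a second Slc1a5 probe at -0.82; Slc1a5 was not called with its probes averaged (0.59).

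Of 23 genes of sodium absorption and aldosterone response, 10 were higher, 1 was lower and 12 did not pass the test, with a median of 1.23; 15 of the 23 belonged to the brightest genes. Hsd11b2, which protects the mineralocorticoid receptor by inactivating glucocorticoids, was at 6.05, 6.32 and 6.30 in the colon and -0.49 to 2.98 in the small bowel. Ileum had the highest of these small bowel values, and the groups did not overlap (difference 5.16, SE 0.38; limma adjusted p 1.13e-07). The receptor itself, Nr3c2, was higher by 2.49 (SE 0.23), or 1.63 with its probes averaged, and Fxyd4, a regulator of the sodium pump, by 5.12 (SE 0.40). Among the subunits of the epithelial sodium channel, Scnn1a (1.98) and Scnn1b (1.83) were higher, whereas Scnn1g was lower. Its levels were -1.95, -1.92 and -2.32 in the colon and -0.81 to 0.60 in the small bowel, a difference of -1.86 (SE 0.33; limma adjusted p 0.000635), and -1.19 with normexp. The colonic proton-potassium pump Atp12a was higher by 3.04, while Slc9a3, the main sodium-proton exchanger of the brush border, did not pass the test at 0.38. The steroid-induced Sgk1 (1.57) and Tsc22d3 (1.25) also missed the threshold.

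Of 19 carbonic anhydrase and anion exchange genes, 8 were higher and none was called lower. After quantile normalisation the counts were 4 and 1. Car2, the widespread cytosolic carbonic anhydrase, was at 6.17, 6.07 and 6.17 in the colon against -1.72 to 2.91, a difference of 5.27 (SE 0.56; limma adjusted p 4.36e-06). Car1 and Car2 were thus both higher, while Car3 and Car13, which lie in the same group of neighbouring carbonic anhydrase genes, did not pass the test (-0.33 and -0.83), and Car3 was not well above background in any of the 12 samples. The chloride-bicarbonate exchanger Slc26a3 overlapped between groups, since the duodenal mean of 2.92 lay within the colon's range (2.67, 2.72 and 3.06). Its difference of 1.30 (SE 0.42; limma adjusted p 0.0309) was no longer called without duodenum 3, jejunum 3 or colon 3.

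Genes for building the sugars of mucus and other glycans were more often higher than lower. Of 37 genes for building, elongating or sulphating glycans, 21 were higher and 3 lower in the colon, with a median of 0.998. Among the 37, 15 belonged to the brightest genes. St6galnac6 and St6galnac1, which add sialic acid, were higher by 5.38 (SE 0.51) and 4.19 (SE 0.35). St6galnac1 was at 2.52, 2.56 and 2.91 in the colon and never above -0.83 in the small bowel. With normexp St6galnac6 differed by 3.54 and Chst5, below, by 1.87. Abo, the blood group transferase, differed by 4.15 on one probe and -1.69 on the other, and was not called with the probes averaged. The sulphotransferase Chst5 (3.75), B3gnt7 (3.19), B3gnt3 (2.94) and the core enzymes C1galt1 (1.59) and Gcnt1 (1.67) were higher. Gcnt3 (-2.07), which makes branched core structures, Chst2 (-1.85) and St6gal1 (-1.38) were lower, and these last were not called with normexp (-0.39 and -0.57). Of 20 goblet cell genes, 17 of them bright, 10 were higher and 1 lower, with a median of 1.15. The counts were 11 and 4 after quantile normalisation and 12 and 4 with normexp. Spdef, the goblet cell transcription factor, was at 5.77, 5.63 and 5.98 in the colon against 2.98 to 4.87, a difference of 2.11 (SE 0.32). Muc2, the main gel-forming mucin, was higher by 1.37 (SE 0.32; limma adjusted p 0.00438). Tff3, a goblet cell product, did not pass the test at -0.38 (95% interval -1.13 to 0.37; saturated on 3 small bowel arrays), and Zg16, a mucus lectin, was lower, with a difference of -1.36 (SE 0.35), a call lost without colon 1.

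Of 29 lectin and antimicrobial genes, 11 were lower and 5 higher. Reg3b was at 0.50, 0.42 and 0.31 in the colon and 2.23 to 6.66 in the small bowel, where it was saturated in 3 samples. The Paneth cell defensin Defa24 varied within the colon, at 0.73, -2.42 and -3.07, against 0.75 to 6.26 in the small bowel. Its difference was -5.50 (SE 1.22, limma adjusted p 0.00327), and it was saturated in 2 small bowel samples. Lysozyme (Lyz2), Reg3g and Reg4 were lower too. The lectin Itln1 was higher (1.83) but lost its call after quantile normalisation, and it was saturated in 2 small bowel samples and 1 colon sample. Crp and Apcs, relatives of Mptx1 in the pentraxin family, did not pass the test, at 0.95 and 1.02.

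Hox genes were called higher in the colon in each of the 4 clusters. Of 25 tested, 11 were higher and 2 lower, with a median of 0.88, although only 6 of them belonged to the brightest genes. Hoxb13 was at 0.37, 1.07 and 1.22 in the colon and between -5.08 and -3.69 in the small bowel, where 3 of 9 samples were well above background; the difference was 5.03 (SE 0.43; limma adjusted p 5.18e-07). Hoxd13 (3.83), Hoxa9 (3.88) and Hoxa11 (3.14) were the other posterior genes called, each without overlap. Hoxb9, Hoxc10 and Hoxd10, also from the posterior parts of their clusters, did not pass the test at 0.88, -0.53 and -0.66. The anterior genes Hoxb1 (-1.63) and Hoxa2 (-1.44) were lower, and Hoxa2 was not called with normexp (-0.16). Higher calls were not confined to the posterior part: Hoxa4 and Hoxa5 were higher by 5.57 and 2.18. With normexp correction the difference of Hoxa4 was 3.28, of Hoxb13 3.00, of Hoxd13 2.08 and of Hoxa11 1.85, all still called.

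**Figure D4:**
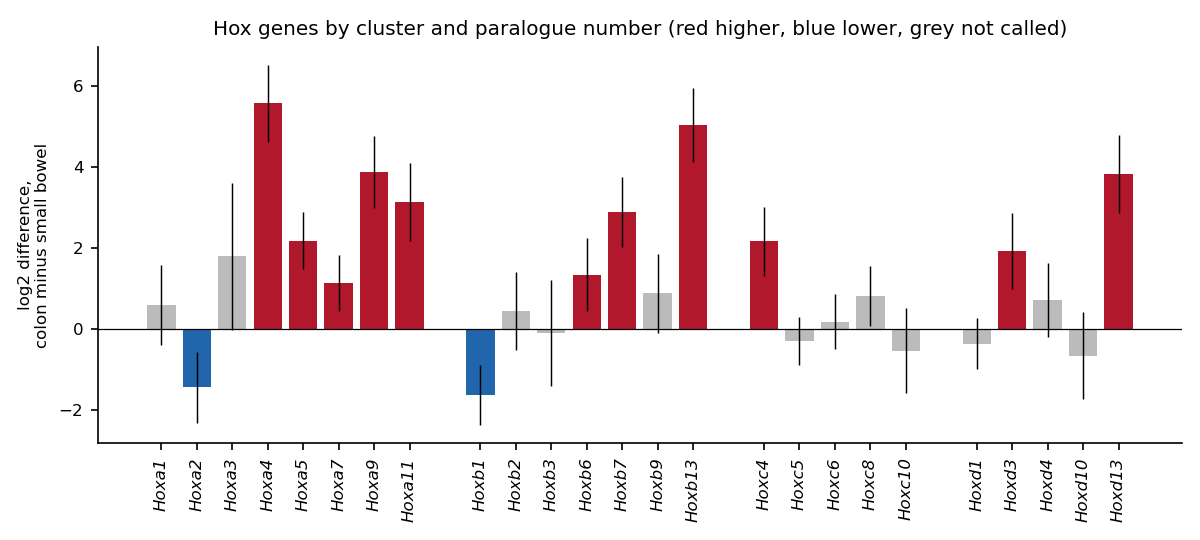
Log2 difference of the colon from the small bowel for 25 Hox genes, grouped by cluster and ordered by paralogue number, with 95% intervals. Red bars were called higher (11), blue bars lower (2) and grey bars were not called.

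Of 39 regional transcription factors, 12 (30.77%) were lower and 8 (20.51%) higher, against 13.2% and 12.5% of all genes. Gata4, which specifies proximal small bowel, was at -0.78, -0.64 and -1.41 in the colon, against -0.00 to 2.71 in the small bowel; the difference was -2.81 (SE 0.30). Pdx1, a proximal patterning factor, differed by -3.50 (SE 0.30); its segment means were 2.89 in duodenum, 1.19 in jejunum and -1.93 in ileum, and with normexp its difference was -2.02. Tbx3 (-4.10), Prdm1 (-2.20), Hnf4g (-1.43) and Hnf4a (-0.98) were lower. Cdx2, the factor that sets intestinal identity, was higher by 1.87 (SE 0.25), at 6.51, 6.40 and 6.63 against 4.06 to 5.06. Klf4 (2.66), Klf5 (2.21), Foxa2 (2.45) and Foxd2 (1.61) were higher.

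Promoter sequences of the same genes are shown for Mptx1, Si and Gip, because all are markers with large differences and hold matches to short motifs of intestinal transcription factors. The sequences are the 250 bases before the RefSeq start on GRCr8, read 5′ to 3′ along the gene: Mptx1 at chr13:88263870-88264119 (minus strand), Si at chr2:159884903-159885152 (minus strand) and Gip at chr10:81464820-81465069 (plus strand). Capitals mark matches to 5 motifs searched on both strands, which can overlap. The letters GTTAAT stand for the factor HNF1. The letters AAAGTCC stand for the factor HNF4. The letters TTTATNG stand for the CDX factors. The letters AGATAA stand for the GATA factors. The letters TATAAA stand for the TATA box.
Mptx1: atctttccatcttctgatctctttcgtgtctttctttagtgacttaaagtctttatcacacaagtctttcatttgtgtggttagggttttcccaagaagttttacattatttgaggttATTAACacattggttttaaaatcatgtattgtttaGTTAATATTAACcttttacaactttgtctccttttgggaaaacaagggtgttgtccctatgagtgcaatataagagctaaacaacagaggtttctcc
Si: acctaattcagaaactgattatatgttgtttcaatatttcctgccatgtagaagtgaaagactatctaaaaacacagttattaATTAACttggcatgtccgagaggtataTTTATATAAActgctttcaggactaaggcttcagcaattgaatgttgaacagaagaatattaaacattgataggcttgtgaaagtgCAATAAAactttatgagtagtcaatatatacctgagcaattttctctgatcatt
Gip: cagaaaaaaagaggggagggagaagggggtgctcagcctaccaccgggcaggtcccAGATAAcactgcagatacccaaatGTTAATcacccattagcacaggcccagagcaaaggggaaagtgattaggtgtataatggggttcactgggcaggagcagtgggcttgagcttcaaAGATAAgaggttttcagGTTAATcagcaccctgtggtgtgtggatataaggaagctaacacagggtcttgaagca

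The Mptx1 window held 3 matches to GTTAAT and none to the other letters, and the Gip window held 2 matches to GTTAAT and 2 to AGATAA. The Si window held 1 match to GTTAAT, 1 to TTTATNG and 2 overlapping ones to TATAAA. Over the full 300-base windows of the RefSeq table, GTTAAT was present in 7.37% of all 27457 promoters, in 5.87% of the 13445 of genes tested, in 4.84% of the 2066 genes called higher and in 7.09% of the 1623 called lower. AAAGTCC was present in 4.63% of all promoters, 4.17% of those tested, 3.15% of those called higher and 5.67% of those called lower. Among the 100 promoters of genes lower by 10-fold or more, 14.0% held GTTAAT, 15.0% AAAGTCC and 18.0% AGATAA. Among the 79 of genes higher by 10-fold or more, the shares were 7.59%, 1.27% and 8.86%. AGATAA was present in 11.3% of all promoters and 8.59% of those tested. The CDX letters were present in 11.2% of all promoters, 8.96% of those tested, 14.0% of those lower by 10-fold or more and 15.2% of those higher. The TATA box letters were present in 14.3% of all promoters, 1477 of the 13445 tested, 20 of the 100 lower by 10-fold or more and 15 of the 79 higher. These shares are a description of letters in a window and were not tested.

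In fuel and drug metabolism both directions occurred. Of 31 genes of ketogenesis and fatty acid oxidation, 7 were higher and 4 lower, and 28 of the 31 were among the brightest genes, so the 22.6% called higher lay below the 25.5% of bright genes at large. After quantile normalisation the counts were 3 and 3. Acads, the dehydrogenase for butyrate-length chains, was higher by 2.40 (SE 0.28; 6.23, 6.33 and 6.52 against 3.34 to 4.62). Long-chain and mitochondrial trifunctional genes such as Acadvl (0.33) and Hadha (0.38) did not pass the test. Oxidative phosphorylation subunits gave 12 higher of 43, none called lower, and a median of 0.39. All but 3 of them were bright, and 27.9% called was close to the figure for bright genes; with normexp the counts were 4 and 2. Cholesterol synthesis gave 8 higher of 22 (36.36%, against 25.5% of bright genes), 18 of them bright, led by Idi1 (2.05), and 4 after quantile normalisation. Of 49 detoxification genes, 14 were lower and 5 higher. Cyp1a1 was lower by at least 13.9-fold and not well above background in the colon (-1.29 with normexp), and Gsta2 differed by -5.54 (-3.24 with its probes averaged), whereas its relative Gsta1 was higher by 2.59; the third Gsta2 probe gave 0.46, and probes of this near-identical family may share signal. Of 25 retinoid genes, 10 were lower and 4 higher. The lower ones included the retinol-binding protein Rbp2 (-5.76) and Lrat (-2.42, with -0.33 on its second probe), which stores retinol as ester.

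Among hormones of the enteroendocrine cells, more were lower than higher. Of 27 hormone and marker genes, 8 were lower and 2 higher. Pyy, the distal peptide that slows the gut, was at 4.95, 4.80 and 5.17 in the colon and from -3.03 to 3.36 in the small bowel, with ileum (3.09) far above jejunum (-0.81) and duodenum (-2.38). The difference was 4.89 (SE 0.37; limma adjusted p 1.26e-07). Gcg was higher by 1.93, without overlap by a narrow margin, and lost its call after quantile normalisation. It was called higher than duodenum (3.655) but not than jejunum (1.17) or ileum (0.95). Gip, Nts (-3.71), Tac1 (-3.18), Sct (-2.68) and Cck (-2.55) were lower. General markers of the lineage split. Chga was lower, at -1.15, and was called lower than duodenum (-1.75) and jejunum (-2.02), but did not pass the test against ileum (0.32). Chgb (-0.08), Scg2 (0.06) and Neurod1 (-0.27) did not pass the test. Against ileum alone Chgb was called higher (1.56), while its difference from jejunum was -1.18 and not called. Of 31 genes of guanylin, nucleotide and fatty acid signalling, 11 were higher and 6 lower. Gucy2c, the guanylin receptor, was higher by 2.47, and uroguanylin (Guca2b), one of its ligands, was lower, at -1.99. The other ligand, guanylin (Guca2a), was higher by 1.53, but its groups overlapped, at 7.83, 6.93 and 7.76 in the colon against 4.83 to 8.51. It did not pass the test against jejunum (0.24, limma adjusted p 0.742), and it was saturated in 2 small bowel samples. The short-chain fatty acid receptor Ffar2 was at 4.90, 4.90 and 5.09 against -0.42 to 1.34 (difference 4.18, SE 0.29), while its relative Ffar3 was lower (-1.05).

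Barrier and secreted proteins differed in both directions within families. Of 26 tight junction genes, 8 (30.77%) were higher and 3 (11.54%) lower, against 12.5% and 13.2% of all genes. Cldn8, a sealing claudin, was higher by 2.21 (SE 0.28) and Cldn15, a cation-pore claudin, lower, at -2.04 (SE 0.33), neither overlapping. With normexp the difference of Cldn15 was -1.31. Of 50 proteases and inhibitors, 18 were higher and 9 lower. The inhibitors Wfdc2 (4.29, SE 0.22) and Timp2 (4.27, SE 0.26) were higher, the former on the brightest of its 3 probes, with 0.56 on another and 2.13 for the mean of the probes. Mmp7 (-3.42, and -1.82 with normexp) and Mmp2 (-2.19) were lower, but a second Mmp2 probe gave 1.13 and Mmp2 was not called with the probes averaged (-0.53). Of 24 annexins and S100 proteins, 18 of them bright, 11 were higher and 3 lower, led by S100a6 (3.83, and 2.43 with its probes averaged). Of 42 matricellular and secreted regulators, 8 (19.05%) were higher and 5 (11.9%) lower, the latter near the 13.2% of all genes. Osteopontin (Spp1) was at -0.03, 0.05 and -0.37 in the colon against a highest level of -3.85, and was well above background in only 1 small bowel sample; the difference was 5.09 (SE 0.48) and 2.60 with normexp. Tlr4, the receptor for bacterial endotoxin, was higher by 4.52 (SE 0.32; 2.70, 2.50 and 2.43 against -2.75 to -0.67), and Tlr5, for flagellin, was lower, at -0.71. Ereg, a growth factor of the EGF family, was lower, at -4.51.

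Stem and progenitor markers were mixed: of 15, 4 (26.67%) were higher and 2 (13.33%) lower, against 12.5% and 13.2% of all genes. Olfm4, a marker of small bowel crypt base cells, was at -2.56, -2.30 and -2.44 against -1.12 to 3.81 (difference -4.12, SE 0.69), Ascl2 was higher by 1.41 and Lgr5 did not pass the test (-0.72, 95% interval -1.39 to -0.06). Of 34 proliferation genes, 2 (5.9%) were higher and 1 (2.9%) lower, both below the shares of all genes. Of 16 tuft cell markers, 5 were lower and 1 higher, with Avil (-3.60, and -1.06 with normexp) and Pou2f3 (-2.17, and -1.39 with its probes averaged) lower and Trpm5 at 0.04.

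Markers of other cells differed between the groups as well. Of 22 T cell genes, 12 were lower and none higher, with a median of -1.39; the mean level over the list ran from -2.41 to -2.16 in the colon and from -1.61 to 0.06 in the small bowel, and 15 of the 22 were well above background in all colon samples. The lower members numbered 9 after quantile normalisation, 6 with normexp, 8 without colon 1 and 5 with the colon samples averaged, with none higher in any of these. Cd7 (-4.42, with -1.12 on its second probe), Gzma (-3.53) and Cd3g (-2.69) were the largest. Of 20 myeloid and MHC class II genes, 10 were lower and 1 higher, including Cd74 (-4.35) and Ciita (-3.31), with list means of -1.25 to -1.10 in the colon and -0.61 to 1.34 in the small bowel. Of 20 fibroblast genes, 7 were lower and 1 higher, with list means of -2.56 to -2.47 against -2.65 to -1.35. Col1a2 was at -3.47, with -0.81 on its second probe, but Col1a1 was at 0.34 and not called. In cell suspensions of this kind, fewer cells of a type and less RNA per cell cannot be told apart. B cell, mast cell, neural, pancreatic and gastric lists gave 3, 2, 4, 4 and 4 lower members of 14, 13, 19, 20 and 17, and 1, 0, 1, 2 and 2 higher members, against 13.2% lower and 12.5% higher over all genes. Of 14 endothelial genes 3 were higher and 1 lower, of 12 smooth muscle genes 2 and 2, and of 9 squamous genes 1 and 0. The 6 red cell genes tested gave none in either direction (Hbb at -0.04).

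Of 32 immediate early and stress genes, which cell isolation is known to induce, 21 were higher and 2 lower, the highest share of higher members of the 45 lists, with a median of 1.38; 26 of the 32 were bright. Egr2 (3.52), Klf2 (2.65), Ier3 (2.30), Egr1 (2.25) and Nr4a1 (2.17) were higher, whereas Fos (0.76) did not pass the test and Hsph1 (-1.37) was lower. The list mean ran from 2.53 to 2.82 in the colon and from 1.19 to 2.14 in the small bowel. Klf4 and Ccn1, counted among the regional factors and the secreted regulators, belong to this list as well. The part of these cells and of the stress genes in the differences of the other lists was not tested.

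**Figure D5:**
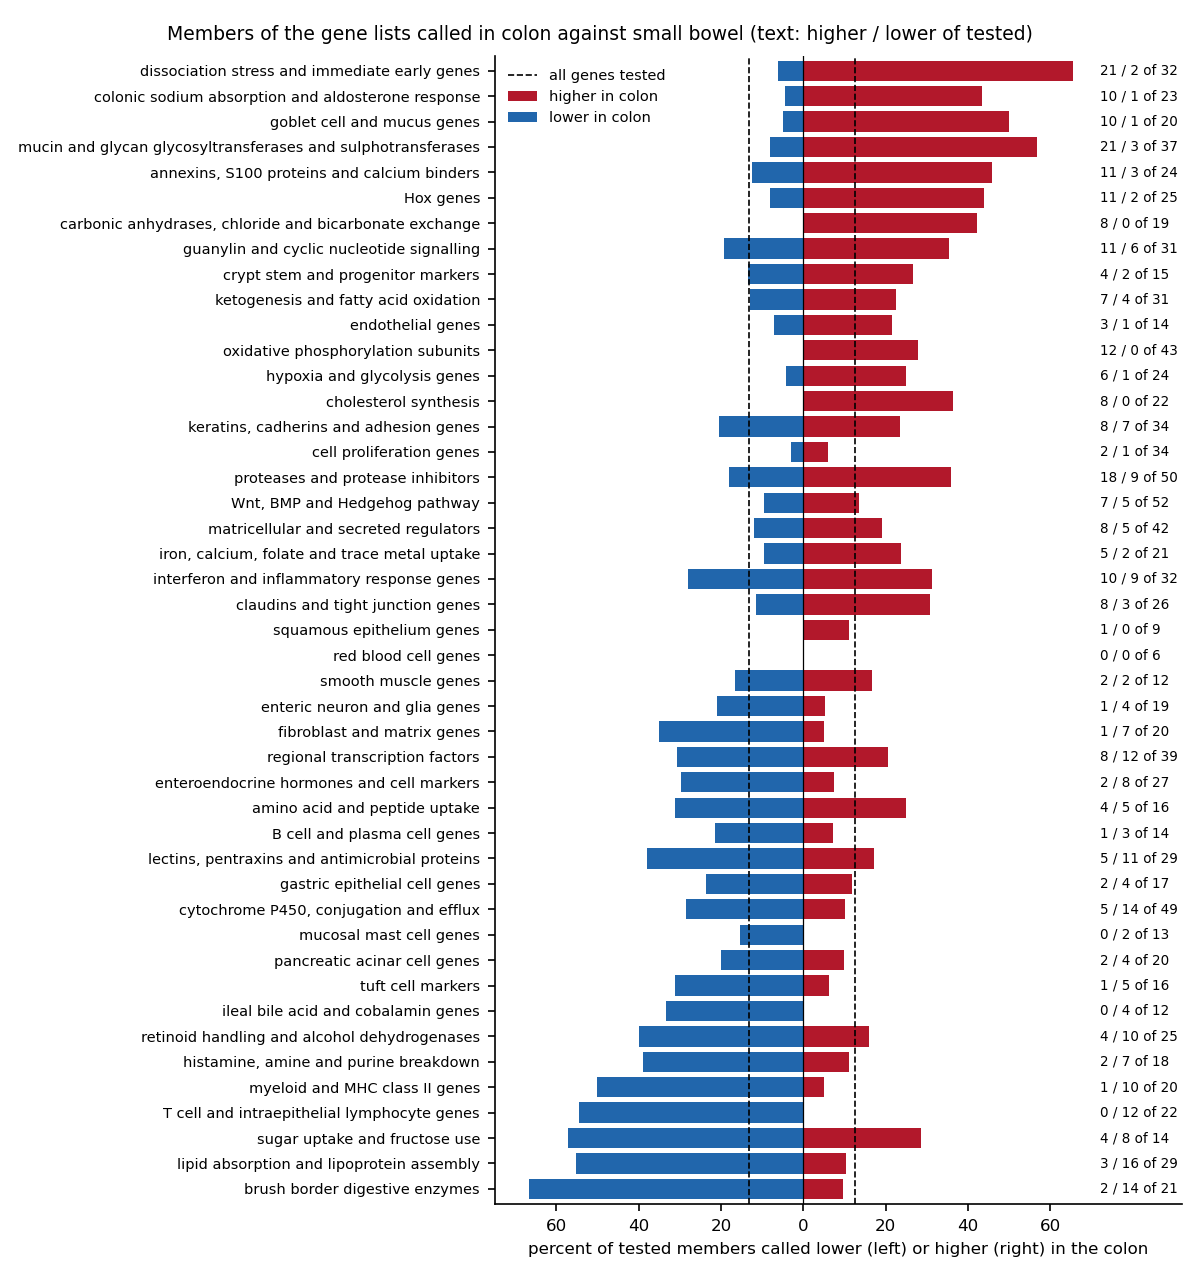
Percent of the tested members of each of 45 gene lists called lower (blue, left) or higher (red, right) in the colon, ordered by median difference, with the counts at the right; dashed lines mark all genes tested (12.5% higher, 13.2% lower). Brush border, lipid and T cell lists lie at the lower end and the stress, sodium absorption, goblet and glycan lists at the upper end.

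For part of the genes the data bounded the difference. The 95% interval lay within 1 log2 unit on either side of 0 for 5195 genes (15.74%). The median distance from the estimate to the end of its interval was 0.84, so differences under about 1 log2 unit were generally not resolved with 3 colon samples.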

How the data were processed

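RNA of 15 rat mucosal cell preparations was labelled with Cy3 or Cy5 and read as single channels; the 3 colonic and 9 small bowel preparations were compared. Per the file headers, the authors deposited Agilent Feature Extraction output, in which the processed signal is a background-subtracted, dye-normalised intensity per spot. The authors' deposited value table holds the same linear intensities: 100.0% of spots lay within 0.02 log2 of the scanner files in every sample. Each sample's own dye was used, as log2 processed intensity minus the sample's 75th percentile. Control spots and spots marked as outliers were left out, and the brightest tested probe stood for a gene with several. Probes were named through the array annotation and RefSeq.

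The fit used limma 3.58.1 in R 4.3.3 (statmod 1.5.0) on all 15 samples, with segment and dye as terms, the slide as a random block (correlation 0.36) and an intensity trend, leaving 9 residual degrees of freedom. Tests were two-sided with Benjamini-Hochberg adjustment over 33001 genes. The dye term gave 0 genes at adjusted p below 0.05 in limma and 629 at unadjusted p below 0.05. No counts underlie these intensities, and the number of samples limits the precision. Replicate numbers did not pair samples: deviations of 9 same-numbered pairs correlated at -0.149 to 0.142, with 2 over 0.1. For normexp, median signals were used because the colon files hold no mean signal.

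Named genes were the 15 largest non-overlapping called differences in each direction, the 6 markers, up to 5 called members of each direction and up to 3 defining uncalled members per list, and up to 5 called genes whose colon mean lay between segment means. Other list members are named for their role and were chosen after their values were seen. The comparison, the 45 lists and the markers were chosen with earlier results of these data known. Some named items are not reported here.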

Additional observations from a re-analysis of the deposited data

Results flagged for a closer look

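Among the 16474 tested genes with a symbol that is not provisional, the sign of the difference depended on the segment for 11. For these, all 3 colon samples lay above every sample of one small bowel segment and below every sample of another, with both contrasts called in limma. The difference between segments was not tested. Gkn2, a gastrokine, differed by 2.67 from ileum and by -4.76 from duodenum. Fabp6, the ileal bile acid binding protein, differed by 2.28 from duodenum and by -6.30 from ileum. Papss2, which makes the sulphate donor for glycans, differed by 3.34 from ileum and by -2.25 from duodenum. Slc40a1, the iron exporter, differed by 1.85 from ileum and by -2.27 from duodenum. Tmigd1 differed by 3.63 from duodenum and by -1.81 from ileum.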

How the results depend on the processing

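With all 3 colon samples averaged and counted as 1, an alternative chosen after seeing the data in which the lone sample is assumed to vary like the other groups, 1788 genes were higher and 2214 lower, 749 were higher and 937 lower than each segment, 1953 had a narrow interval and 283 list members were called (469 in the main setting). Without the slide block 6415 were higher, 6673 lower and 8637 narrow. Normexp gave 1229 lower than each segment and 14961 narrow, the fit without stomach 1111 and 3339, and probes well above background in all 12 samples 2835 lower, with the median of all genes at 0.11. Leaving out 1 sample gave 2619 to 4591 higher, 3191 to 4806 lower, 1008 to 2067 higher and 1195 to 2141 lower than each segment, 3210 to 5989 narrow intervals and 374 to 508 list members, each lowest without colon 1. A replicate block, for numbers that did not pair the samples, gave 4622 higher and 4269 lower and changed 8 of 313 named calls. Of the 313 named genes, only 204 were present in the setting of probes well above background in all 12 samples. A gene missing from an alternative was not counted against it. On that count 170 kept call and direction under the 29 alternatives and 12 changed sign under at least 1. These were Slc40a1 (0.02 with quantile normalisation, 0.04 with normexp, 0.04 without colon 1, and from -0.45 to 0.04 over the samples left out), Wnt2b (0.08), Rspo3 (0.51), Synpo2 (0.40), Elavl3 (0.13), Cpb1 (0.00), Clps (0.26) and Adcy5 (0.22) with normexp, and Adh4 (-0.89), Sfrp5 (0.44), Cldn18 (0.18) and Krt5 (-0.20) with probes averaged; the cause was not tested. Signal over background limits dim genes.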

Other observations

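Genes called the same way beyond 1 log2 unit sat next to each other in places. In the RefSeq gene order of GRCr8, 72 runs of 3 or more tested neighbours were called alike, 42 higher and 30 lower in the colon. Of the 16474 tested genes placed in this order, 2526 were called higher and 2043 lower at any size. How many such runs a random order would give was not tested. The longest held 6 genes on chromosome X, all higher: Bex4 (2.72), Tceal8 (2.35), Bex1 (3.16), Tceal9 (2.25), Bex3 (1.87) and Morf4l2 (1.27). On chromosome 1 the kallikreins Klk1c8 (2.73), Klk1c9 (4.95), Klk1 (2.96) and Klk1c3 (2.67), serine proteases, were higher. On chromosome 8 the apolipoproteins Apoa1 (-5.65), Apoc3 (-4.47), Apoa4 (-6.16) and Apoa5 (-1.40) were lower, and on chromosome 20 the MHC class II genes RT1-Da (-1.88), RT1-Db1 (-1.40), RT1-Ba (-2.54) and RT1-Bb (-2.09). On chromosome 16 Defa24 (-5.50), Defa6 (-5.73), Np4 (-1.29), RatNP-3b (-3.61) and Defb4 (-1.52) were lower. The runs named here are a selection from the 72. Several other lower runs held olfactory receptor genes, such as Or9g4b (-1.22), Or9g20 (-1.47), Or2ah1 (-1.25) and Or5ar1 (-1.11) on chromosome 3. The part of brightness in the runs was not tested. Members of such families are similar in sequence, so their probes may share signal; this was not tested.

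Probes of a gene often differed, and the values of other probes are not given above for every named gene. Of 4172 genes with a symbol and over 1 tested probe, 1361 were called, and 554 of these had another probe on the other side of 0. For 105 of them probes lay beyond 1 log2 unit in both directions.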
